A study of Mus musculus with 12 samples.

Results

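Transient domains of day 2 progenitors were stretches of accessible chromatin found after 2 days of patterning that were recorded neither before patterning nor at day 4. They were selected on presence and absence alone: a domain of the progenitor list counted as transient when it was at least 150 bp wide, lay on chromosomes 1 to 19, X or Y, and shared no base with any domain of the embryoid body (EB) list or of the 4 day 4 lists. This rule found 3340 transient domains among 41544 progenitor domains of that width, 8.04% of them, and among 87916 progenitor domains of any width. Because the rule used the lists of all 6 groups, the absence of these domains from the other lists is a description and not a result. Ranges in brackets after a share are 95% Wilson intervals, and they cover counting error alone.

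Accessibility was measured by ATAC-seq, in which a transposase cuts open chromatin, in mouse embryonic stem cells that were grown as EBs and directed towards motor neurons. EBs before patterning and progenitors came from the Ainv15(iCre) line, and progenitors had received retinoic acid (RA, 1 µM) and the Hedgehog agonist SAG (0.5 µM) for 2 days. All 4 day 4 groups had 4 days of RA and SAG. The iHoxc6, iHoxc9 and iHoxc10 groups carried a doxycycline-inducible Flag-tagged Hox transgene, in the lines Ainv15(iFlag.Hoxc6), Ainv15(iFlag.Hoxc9) and Ainv15(iFlag.Hoxc10), with doxycycline (Dox) at 3 µg/mL during the final 48 h. The no Dox group came from the Ainv15(iFlag.Hoxc6) line without Dox. Each group had 2 samples but only 1 list of domains, called on both together. No spread between samples could therefore be had, no test across samples was possible, and the depth is unknown. The lists give positions without heights, so a site missing from a list may have been closed or may have fallen under the calling threshold, and these cannot be told apart. Cell line changed together with the step from day 2 to day 4, and the effects of line and time cannot be told apart either. From EBs to progenitors, RA and SAG came together with 2 days of culture, and their effects cannot be told apart.

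In the neural tube, RA from the flanking mesoderm and Sonic hedgehog from the notochord and floor plate turn dividing neuroepithelial cells into ventral spinal progenitors. These cells are kept in the progenitor state largely by SoxB1 transcription factors (Sox1, Sox2 and Sox3), whereas proneural basic helix-loop-helix factors, which bind E-boxes, drive exit from the cycle and neuronal differentiation. Much of the control of such genes sits in distal enhancers, which open and close as cells change state. Embryoid bodies are mixed cultures, and fewer cells of a type with an open site cannot be told apart from weaker opening in every cell.

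The labelled stage was checked against domains within 1 kb of the transcription start sites (TSS) of marker genes. Most of these markers did not separate the lists. All 6 neural progenitor genes (Sox1, Sox2, Pax6, Nes, Hes5 and Fabp7), all 4 ventral genes (Olig2, Nkx6-1, Nkx2-2 and Foxa2) and all 6 neuronal genes had such a domain in every list, EBs included. Of 6 pluripotency genes, 5 had one in EBs, 3 in progenitors and 2 in each day 4 list. Pou5f1 and Nanog had one in EBs alone, Zfp42 in EBs and progenitors, Klf4 and Esrrb in every list, and Dppa3 in none. Mesoderm and endoderm genes had one at 6 of 6 in EBs and progenitors, 5 of 6 in no Dox and iHoxc6, and 4 of 6 in iHoxc9 and iHoxc10. Only the pluripotency class separated EBs from progenitors. The classes that were alike in every list could neither bear out nor go against the progenitor label.

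Of the motifs searched, the Sox motif, ACAAAG or ACAATG on either strand, differed most from the surroundings in percentage points, although some rare motifs had a higher ratio. Stretches of 300 bp are shown for the widest transient domain near a gene of each of 5 pathway lists and for the widest of all, so that the matches can be seen in place. They come from the GRCm38.p6 assembly (mm10) in RefSeq, plus strand, centred on the domain, with Sox matches in capitals.
Rdh10, chr1:16136606-16136905: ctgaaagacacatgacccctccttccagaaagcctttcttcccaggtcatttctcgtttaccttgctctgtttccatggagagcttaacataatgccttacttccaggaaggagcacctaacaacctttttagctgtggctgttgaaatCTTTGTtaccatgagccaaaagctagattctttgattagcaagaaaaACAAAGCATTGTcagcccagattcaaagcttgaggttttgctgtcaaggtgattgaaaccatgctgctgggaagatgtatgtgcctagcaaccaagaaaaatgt
Gli3, chr13:15107924-15108223: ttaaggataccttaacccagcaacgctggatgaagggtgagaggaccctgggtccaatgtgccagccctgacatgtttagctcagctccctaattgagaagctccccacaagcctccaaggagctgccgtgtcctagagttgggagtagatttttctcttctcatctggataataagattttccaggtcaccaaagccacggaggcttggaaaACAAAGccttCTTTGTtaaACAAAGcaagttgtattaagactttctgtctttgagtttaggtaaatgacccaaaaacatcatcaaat
Hey1, chr3:8720861-8721160: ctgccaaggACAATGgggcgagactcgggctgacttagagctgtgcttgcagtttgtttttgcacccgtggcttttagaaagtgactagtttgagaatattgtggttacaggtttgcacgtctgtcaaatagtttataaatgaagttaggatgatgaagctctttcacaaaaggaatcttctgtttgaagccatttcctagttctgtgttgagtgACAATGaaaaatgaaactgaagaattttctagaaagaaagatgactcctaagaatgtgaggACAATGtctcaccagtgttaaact
Sp8, chr12:118734236-118734535: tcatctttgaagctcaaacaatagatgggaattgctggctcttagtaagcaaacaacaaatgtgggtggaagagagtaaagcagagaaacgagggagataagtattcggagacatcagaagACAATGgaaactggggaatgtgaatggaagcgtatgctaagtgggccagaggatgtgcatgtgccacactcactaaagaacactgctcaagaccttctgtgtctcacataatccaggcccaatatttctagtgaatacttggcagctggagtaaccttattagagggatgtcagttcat
Sox3, chrX:60991929-60992228: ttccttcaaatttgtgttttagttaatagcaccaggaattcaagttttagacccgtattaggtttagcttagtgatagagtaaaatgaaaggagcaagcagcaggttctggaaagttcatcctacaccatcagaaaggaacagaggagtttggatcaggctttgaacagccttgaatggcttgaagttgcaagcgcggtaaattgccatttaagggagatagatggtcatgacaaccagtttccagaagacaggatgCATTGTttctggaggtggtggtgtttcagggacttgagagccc
Adgra3, chr5:50640505-50640804: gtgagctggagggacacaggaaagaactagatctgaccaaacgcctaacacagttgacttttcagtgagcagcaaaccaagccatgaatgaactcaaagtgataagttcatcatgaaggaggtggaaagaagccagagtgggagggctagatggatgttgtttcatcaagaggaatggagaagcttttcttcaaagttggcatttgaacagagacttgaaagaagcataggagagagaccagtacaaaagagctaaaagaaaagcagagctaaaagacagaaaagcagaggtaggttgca
The stretches near Rdh10, Gli3 and Hey1 held 3 matches each, those near Sp8 and Sox3 held 1 each, and the widest transient domain, near Adgra3, held none in these 300 bases. In the central 150 bp, on which the Sox shares below rest, Rdh10 had 3 matches. There Gli3, Hey1 and Sp8 had 1 each, and Sox3 and Adgra3 had 0.

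All 6 of these sites lay between genes. The site near Rdh10, which encodes the retinol dehydrogenase of RA synthesis, was 591 bp wide (chr1:16136461-16137051) and 30.98 kb downstream of its TSS. The nearest domain of another list was 5.77 kb away in EBs, 8.73 kb in no Dox, 8.46 kb in iHoxc6, 29.8 kb in iHoxc9 and 30.1 kb in iHoxc10. The site near Gli3, a zinc-finger effector of Hedgehog signalling, was 503 bp wide (chr13:15107823-15108325) and 355 kb upstream, with no EB domain within 71.2 kb but no Dox and iHoxc10 domains 2.05 kb away. Hey1, a Notch target, had a site of 463 bp (chr3:8720780-8721242) 53.8 kb upstream, and Sp8, a zinc-finger transcription factor, had one of 415 bp (chr12:118734179-118734593) 112 kb upstream. The Sox3 site was 404 bp wide (chrX:60991877-60992280), 98.6 kb upstream, and stood alone: the nearest domain of any other list, in no Dox, was 50.5 kb away. The widest transient domain measured 1028 bp (chr5:50640141-50641168), 582 kb upstream of the adhesion receptor gene Adgra3, and had domains of all 4 day 4 lists between 1.35 and 1.89 kb away.

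Transient domains were narrow, which the rule itself favours, since a wider domain is likelier to share a base with another list. Their median width was 234 bp (interquartile range 190 to 299), against 398 bp for all progenitor domains of the minimum width. For comparison, 4563 progenitor domains were absent from EBs but held by all 4 day 4 lists (opened and kept). Another 840 were held by EBs and by none of the day 4 lists (held in EBs and closed). These names describe presence in the lists alone. Opened and kept domains had a median width of 390 bp and held-and-closed domains one of 234 bp. Of progenitor domains from 150 to 199 bp wide, 17.6% (16.7 to 18.6) were transient, and the share fell to 17.0% at 200 to 299 bp, 6.87% at 300 to 499 bp and 0.781% (0.659 to 0.927) at 500 bp or more. Near the threshold, 89 members were 150 to 154 bp wide and 127 domains from 145 to 149 bp met the rule in all but width. The number rested heavily on the minimum width: 22881 narrower progenitor domains also overlapped no other list, which makes 26221 at any width. Of the members, 23 lay less than 10 bp from a domain of another list, while 30 domains of the minimum width were left out by an overlap of at most 10 bp.

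**Figure D1:**
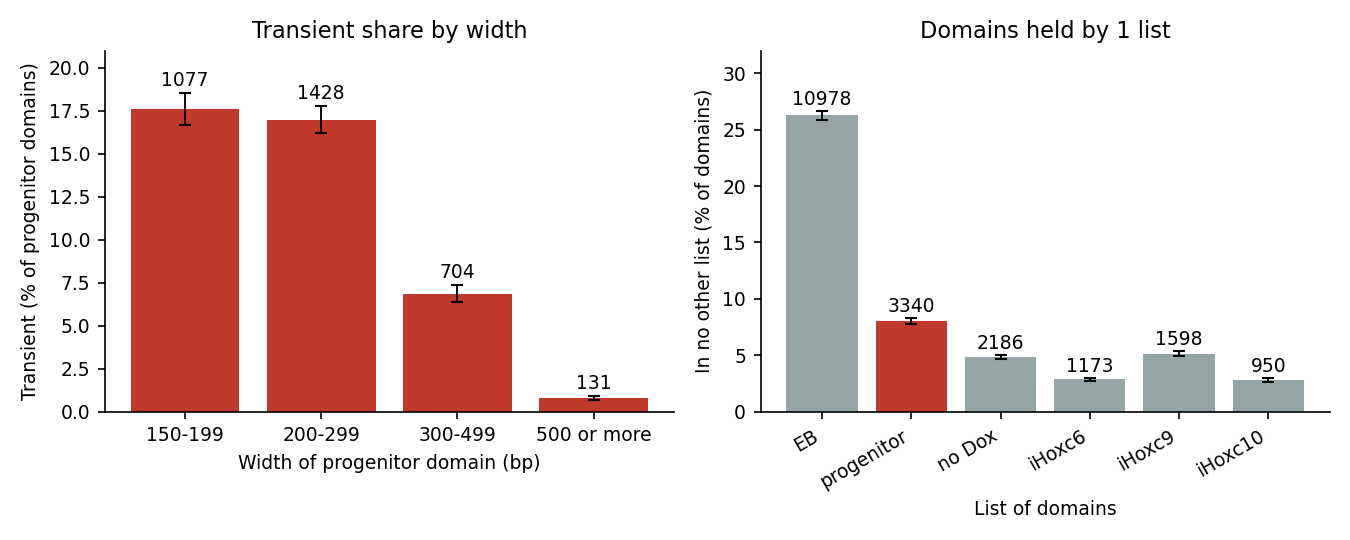
Left, the percentage of progenitor domains that were transient in each width class (bp), with the number of transient domains above each bar. Right, the percentage of domains at least 150 bp wide in each of the 6 lists that overlapped no domain of the other 5, with their number; error bars are 95% Wilson intervals. The transient share dropped from 17.6% in the narrowest class to 0.781% in the widest, and the progenitor share of 8.04% lay between that of EBs and those of the 4 day 4 lists.

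Every list held domains of its own. In EBs 26.3% (25.8 to 26.7) of domains at least 150 bp wide overlapped no other list, against 8.04% (7.78 to 8.31) in progenitors, 5.14% in iHoxc9, 4.85% in no Dox, 2.85% in iHoxc6 and 2.81% in iHoxc10. The 4 day 4 lists had one another to overlap, so these shares are not on equal terms. Domains private to a list were narrow in all 6, with medians from 215 bp in iHoxc6 to 248 bp in EBs. Of 15419 progenitor domains absent from EBs, 21.7% were transient, 15.2% were held by 1 day 4 list, 17.1% by 2, 16.5% by 3 and 29.6% by all 4. Those held by 1 list were in no Dox in 51.3% of cases and in iHoxc6 in 38.9%, but in iHoxc9 in 5.08% and in iHoxc10 in 4.74%. The iHoxc9 and iHoxc10 lists were also shorter, with 63504 and 56232 domains against 88806 in no Dox and 91181 in iHoxc6. The no Dox and iHoxc6 groups shared a cell line. How far list length or line set these shares was not tested. The name of the no Dox file carries a p threshold that the other names lack, and whether its domains were called with other settings was not tested.

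Rows of each list ran from wide to narrow domains (Spearman's rho of row and width from -0.94 to -0.92), an order that none of the sources used here explains. Transient domains stood at a median of 41.9% of the way down the progenitor list, held-and-closed domains at 42.2% and opened and kept domains at 22.4%. Of the transient domains, 280 were in the first 25% of the list.

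Transient domains were distal. Only 3.02% (2.49 to 3.66) of them, 101 domains, touched a promoter, taken as 1 kb to either side of a protein-coding TSS, against 36.0% (35.5 to 36.5) of all other progenitor domains. Introns held 40.03%, exons 3.65%, and 53.3% (51.6 to 54.98) lay between genes. The median distance to the nearest TSS was 65.6 kb, against 10.6 kb for the other progenitor domains, and 39.8% were over 100 kb away. Opened and kept domains were placed much alike, with 4.51% (3.95 to 5.16) at promoters and a median distance of 66.5 kb. Held-and-closed domains were nearer to genes, with 12.9% (10.8 to 15.3) at promoters and a median of 20.9 kb. The low promoter share was not confined to one width: it was 3.53% for transient domains of 150 to 199 bp, against 8.11% for other domains of that class, and 0.763% for those of 500 bp or more, against 64.3%.

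**Figure D2:**
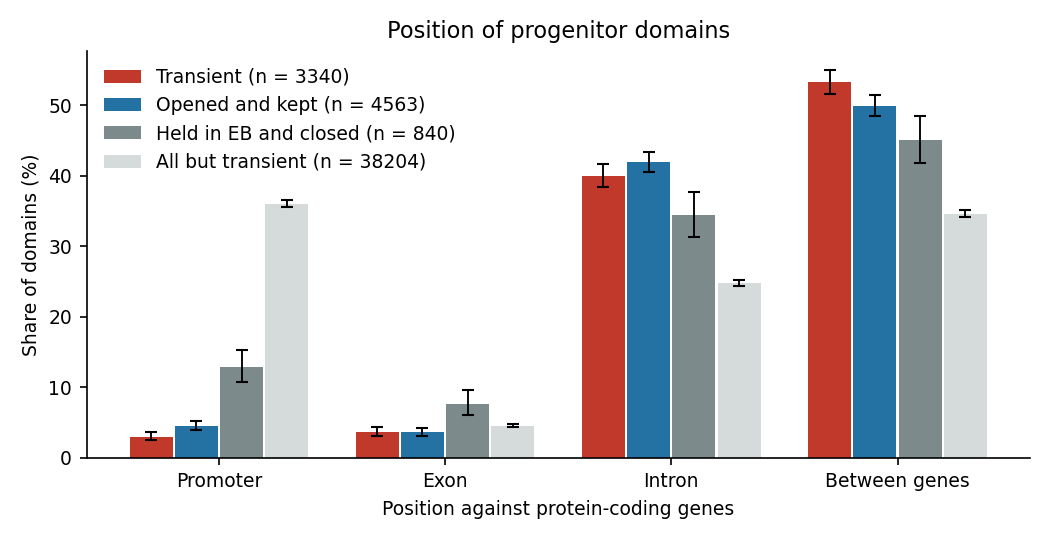
Share of domains (%) at promoters, in exons, in introns and between genes. Transient domains are shown beside opened and kept domains, absent from EBs and held by all 4 day 4 lists. Also shown are held-and-closed domains, held by EBs and no day 4 list, and all progenitor domains but the transient. Error bars are 95% Wilson intervals. Transient and opened and kept domains had promoter shares of 3.02% and 4.51%, far below the 36.0% of the rest.

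Their sequence was AT-richer than that of the rest of the list. Median GC content was 45.1% in transient domains, 47.0% in opened and kept, 51.8% in held-and-closed and 54.0% in all other progenitor domains. The median ratio of observed to expected CpG was 0.164, against 0.217 in opened and kept domains and 0.387 in the others. Repeats, as soft-masked in the assembly, covered on average 12.7% of a transient domain and 9.19% of an opened and kept one, and 4.37% (3.73 to 5.12) of transient domains were more than 50% masked, against 1.03% (0.776 to 1.37). Shares per chromosome ran from 6.41% on chromosome 7 to 9.33% on chromosome 3, with 6.95% on X and 0 of 41 domains on Y.

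Sox motifs were found in the central 150 bp of 1593 transient domains, 47.7% (46.0 to 49.4). Windows of the same length 5 kb to either side held one in 21.6% (20.6 to 22.6), and the central 150 bp of all 41544 progenitor domains in 26.7%. The share was 44.0% (42.6 to 45.5) in opened and kept domains and 27.0% in held-and-closed domains, so the high Sox share was found in domains held at day 4 too and was not particular to transient ones. Of transient domains, 11.4% held 2 matches and 2.69% held 3 or more, against 2.46% and 0.165% of flanking windows. ACAAAG was present in 31.3% and ACAATG in 23.1%, and in the flanks in 13.9% and 8.94%. Among the 1502 hexamers present in at least 200 transient and opened and kept domains together, these were the third and the first by the ratio of transient domains to flanks (2.25 and 2.59), with a strand and its reverse complement taken as one.

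The Sox difference between transient and opened and kept domains depended on which domains were set side by side. In domains of 150 to 199 bp the shares were 50.7% and 38.1%, in those of 300 to 499 bp they were 44.7% and 43.4%, and at 500 bp or more 43.5% and 46.1%. With opened and kept domains weighted to the GC content of the transient ones, the ratio fell from 1.08 to 1.04. By list position, a Sox motif was present in 52.5% (46.7 to 58.3) of the 280 transient domains in the first 25% of rows. It was present in 37.2% (34.1 to 40.3) of the 939 in the last 50%. The share in opened and kept domains fell likewise, from 48.4% (46.5 to 50.3) of 2610 to 34.2% (27.1 to 42.2) of 149. From 25 to 40% of the list the shares were 52.3% in transient and 38.9% in opened and kept domains. From 40 to 50% they were 50.9% and 36.7%. The transient share was the higher in every class of list position, but in the first and last classes the intervals of both sets overlapped.

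E-boxes with a GC centre (CAGCTG), a class that proneural factors of the Ascl family bind, went the other way. They were present in 8.74% (7.83 to 9.75) of transient domains, above the 6.74% (6.16 to 7.36) of flanks at a ratio of 1.30, and in 16.2% (15.2 to 17.3) of opened and kept domains, where the ratio to their own flanks was 2.66. Over all progenitor domains the share was 11.5%. Between these ends the share stepped up with the number of day 4 lists that held the domain: 10.2% with 1 list, 11.4% with 2 and 12.4% with 3. It was lower in transient than in opened and kept domains in each of the 4 width classes, the 4 classes of list position and the 5 GC classes. In domains of 300 to 499 bp, for example, it was 6.82% and 16.0%. This motif and CAGATG, the E-box bound by Neurog and Olig factors, with 12.04% of transient and 16.9% of opened and kept domains (10.8% of all progenitor domains), were singled out after their values were seen.

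The RFX motif (GTTGCCA), recognised by factors of ciliated and neural cells, was present in 2.04% (1.61 to 2.57) of transient and 5.44% (4.81 to 6.13) of opened and kept domains, with 1.44% in flanks and 2.99% in all progenitor domains. Rarer motifs with low ratios rested on few domains: the CTCF core was found in 8 transient domains (0.24%) against 3.10% of all progenitor domains, the EBF palindrome in 10 (0.299%, against 0.522%) and the NFI palindrome in 0 of 3340 (up to 0.115%, against 0.0120%). TEAD motifs (GGAATG), read by the partners of the Hippo effectors Yap1 and Wwtr1, were present in 14.5% (13.4 to 15.8) of transient, 11.4% (10.5 to 12.3) of opened and kept and 8.97% of all progenitor domains, with 8.34% in flanks. Both a Sox and a TEAD match were present in 7.25% (6.41 to 8.17) of transient and 4.73% (4.15 to 5.39) of opened and kept domains. Of all progenitor domains but the transient, 2.71% held both. Whether the motifs met more often than their single shares would give was not tested.

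**Figure D3:**
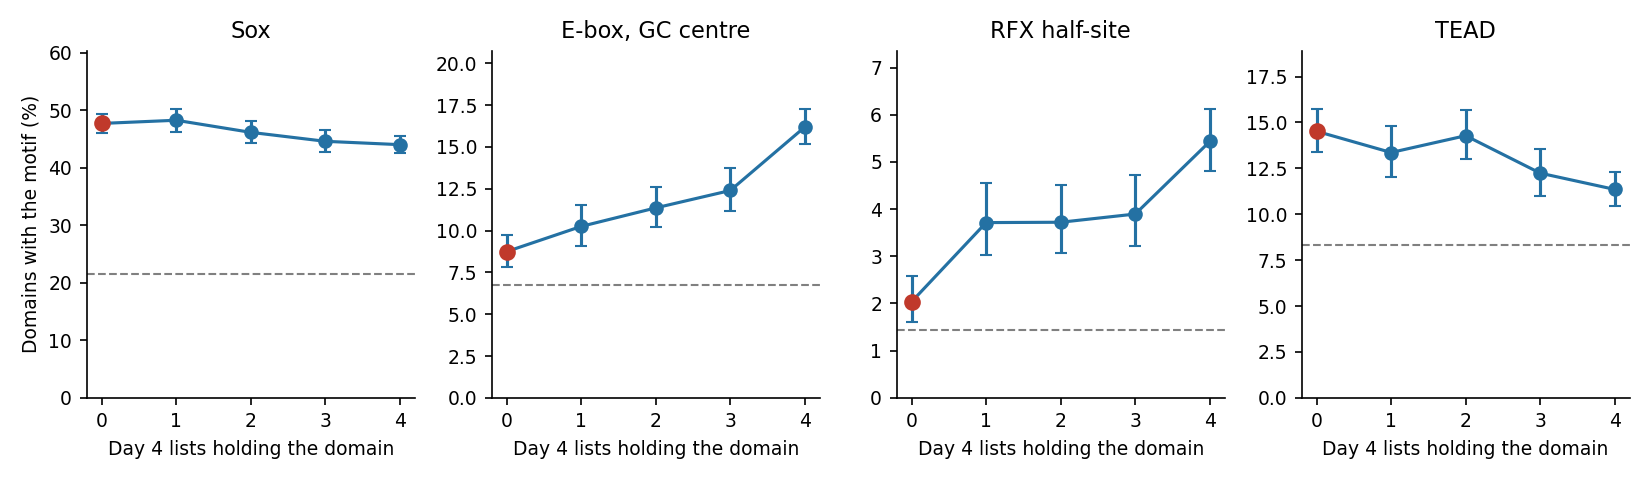
Percentage of progenitor domains absent from EBs whose central 150 bp held a Sox motif, an E-box with a GC centre (CAGCTG), an RFX motif or a TEAD motif, by the number of day 4 lists that held the domain; 0 lists, in red, are the transient domains. Error bars are 95% Wilson intervals, and the dashed line is the share in windows 5 kb away from transient domains. The E-box share rose from 8.74% to 16.2%, while the Sox share stayed between 44.0% and 48.2%.

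Other motifs with the highest ratios of transient to opened and kept domains differed little from the flanks. Gli motifs (TGGGTGG), the sites of the Hedgehog effectors, were in 4.16% (3.54 to 4.89) of transient domains, 3.24% (2.77 to 3.80) of opened and kept domains and 3.53% of flanks, with 4.07% of all progenitor domains. The CACGTG E-box stood at 1.74% and 1.62% in transient domains and flanks, NF-Y (CCAAT) at 21.7% and 21.5%, and TCF/LEF (ATCAAAG, which holds most of a Sox match) at 2.93% and 2.96%. All progenitor domains held these in 2.82%, 18.3% and 1.73%.

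Retinoid sites were rare. The nuclear receptor motif AGGTCA was present in 13.3% (12.2 to 14.5) of transient domains, 15.5% (14.4 to 16.5) of opened and kept domains, 8.77% (8.12 to 9.47) of flanks and 9.99% of all progenitor domains. Whole RAR/RXR direct repeats, which pair such motifs, were found with a spacer of 5 bases in 11 transient domains (0.329%, 0.184 to 0.589), 0.438% of opened and kept domains and 2 of 6680 flanking windows (0.0299%). With a spacer of 1 they were in 12 transient domains (0.359%), 0.548% of opened and kept domains and 0.0749% of flanks. With a spacer of 2 they were in 9 transient domains (0.269%), 0.219% of opened and kept domains and 0.210% of flanks. The ratios to flanks, 11 with a spacer of 5 and 4.80 with a spacer of 1, were above that of the Sox motif, 2.21, but rested on 2 and 5 flanking windows. All progenitor domains held the repeats with spacers of 5, 1 and 2 in 0.289%, 0.272% and 0.156%.

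Hox-type motifs were unevenly placed. The posterior Hox consensus (ATAAA after 2 bases other than G) was present in 21.2% (19.8 to 22.6) of transient domains, below the 28.2% (27.0 to 29.6) of opened and kept domains and the 32.8% (31.7 to 33.9) of flanks, and TTTATNG, shared by Cdx and posterior Hox factors, in 6.53%, 10.9% and 9.94%. Pbx-Hox sites (TGATTNAT) were above the flanks in both, at 5.21%, 6.90% and 2.53%. The central Hox consensus (TAAT, a base other than C, then a purine) stood at 41.2%, 41.9% and 34.7%. In all progenitor domains these 4 motifs had shares of 14.2%, 5.04%, 2.87% and 23.3%. Within each of the 5 GC classes the posterior consensus remained less frequent in transient than in opened and kept domains. Flanks were not matched for GC content, and how far it set the differences from flanks was not tested.

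**Figure D4:**
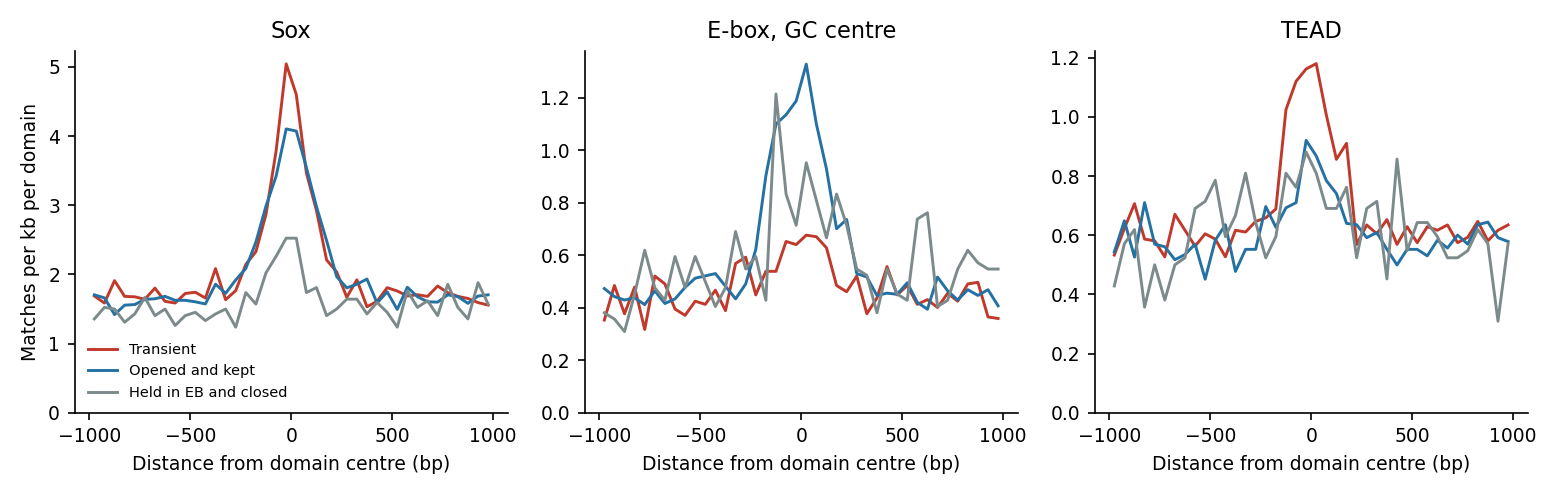
Matches per kb per domain in steps of 50 bp within 1000 bp of the domain centre for the Sox motif, the E-box with a GC centre (CAGCTG) and the TEAD motif, in transient, opened and kept, and held-and-closed domains. Sox matches peaked at the centre of transient domains, with a mean of 4.82 per kb against 1.67 per kb beyond 800 bp. They also peaked in opened and kept domains, at 4.09 against 1.62 per kb. The E-box had a mean of 0.659 per kb at the centre of transient domains and 1.26 per kb at that of opened and kept domains.

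Assigned to the nearest protein-coding TSS, transient domains fell to 2412 genes, 15.7% of the 15356 genes with any progenitor domain of the minimum width. Of these genes 1806 had 1 transient domain, 409 had 2 and 197 had 3 or more. Sorcs3, a sorting receptor of the VPS10 family, had the most: 10 of its 26 progenitor domains were transient, or 7.30 per Mb of the ground nearest to it, against 1.23 per Mb over all genes. They lay 281 to 1052 kb from its TSS, and 7 were inside the gene.

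Celf2, an RNA-binding regulator of splicing, had 8 of 27, of which 6 lay in the gene and 1 at a promoter. Pcdh9, a protocadherin, had 8 of 20 spread over 3706 kb of sparse ground, or 2.16 per Mb. The Slit receptor gene Robo2 had 7 of 25, the netrin receptor gene Dcc 7 of 25 with 6 in its body, and the ephrin receptor gene Epha4 7 of 18. Tenm2, a teneurin adhesion protein, had 7 of 28, and Tox3, an HMG-box factor, 7 of 18 at 7.90 per Mb. Gata3, a zinc-finger factor, had 7 of 14, all of 170 to 282 bp and 8.07 to 1079 kb from its TSS. Adgrl2, a latrophilin, had 6 of 40 and led its tie by its widest domain, of 589 bp. These genes stand in wide intergenic ground or are long, and a nearest TSS is not evidence of control.

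Among lists of developmental genes, the share of transient domains lay around the background of 8.04% with wide intervals. Factors of the forebrain, midbrain and hindbrain had the highest share, 18 of 138 domains or 13.0% (8.41 to 19.7), at 12 of 22 genes. Emx2, a cortical homeobox gene, had 3 of 7, Six3, needed for the anterior forebrain and eye, 3 of 10, Irx2 3 of 14 and Pax2, of the midbrain-hindbrain boundary, 1 of 11. Outside promoters, where 11.7% of all progenitor domains were transient, the list stood at 15.1% (9.79 to 22.6), an interval that takes in that background. At the other end, Hox genes of groups 1 to 5, the RA-responsive anterior part of the clusters, had 0 of 54 (up to 6.64%), or 0 of 37 (up to 9.41%) outside promoters.

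Of the pathways used for patterning, RA genes had 13 of 150 (8.67%, 5.13 to 14.3) at 10 of 24 genes. They included 2 of 5 domains at the retinoid receptor gene Rxra, 2 of 12 at Dhrs3, a retinaldehyde reductase, and 2 of 26 at the homeobox gene Meis1. Hedgehog genes had 8 of 84 (9.52%, 4.91 to 17.7), 1 each at 8 of 16 genes, among them Gli2, Gli3, the receptor gene Ptch1 and the co-receptor gene Gas1. Ventral progenitor factors had 7 of 147 (4.76%, 2.33 to 9.50), with 2 of 24 at Foxa2, a floor plate factor, and 1 of 7 at Shh. Notch and proneural genes had 8 of 132 (6.06%), 1 each at 8 of 24 genes, which included Notch2, its ligand gene Dll1 and Hey1. The only progenitor domain of the minimum width nearest to Neurog3, a proneural gene, was transient and lay at its promoter. SoxB and SoxC genes had 5 of 89 (5.62%), with 2 of 26 at Sox2 and 1 each at Sox1, Sox3 and Sox14, and neural progenitor markers, a list that shares the SoxB1 genes with it, had 4 of 66 (6.06%).

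Wnt and Fgf genes had 18 of 154 (11.7%, 7.52 to 17.7), led by Tcf7l2, a nuclear effector of Wnt signalling, with 3 of 20, and Spry2, a feedback inhibitor of receptor tyrosine kinases, with 3 of 11, and with 2 each at Fgfr2 and the Wnt antagonist Sfrp1. Dorsal neural tube and crest genes had 13 of 123 (10.6%), with 3 of 23 at Sox9 and 2 of 8 each at Bmp7 and Foxd3, and motor neuron and cholinergic genes 10 of 90 (11.1%), with 2 of 12 at Foxp1. Naive pluripotency genes had 7 of 68 (10.3%), of which 3 of 15 were at Nr5a2, 2 of 7 at Tbx3 and 1 each at Klf4 and Tfcp2l1. Formative and primed pluripotency genes had 7 of 111 (6.31%), mesoderm and endoderm genes 8 of 101 (7.92%), with 2 of 5 at the endothelial receptor gene Kdr, and caudal and axial progenitor genes 3 of 55 (5.45%), at Cdx4, Wnt5b and Sp5. Against 8.04%, the interval lay above for the brain list, below for the anterior Hox genes and took in the background for the other 13 lists. Against the 11.7% outside promoters, it took in the background for 13 lists and lay below for the anterior Hox genes and for ventral progenitor factors, with 7 of 131 (5.34%, 2.61 to 10.6).

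**Figure D5:**
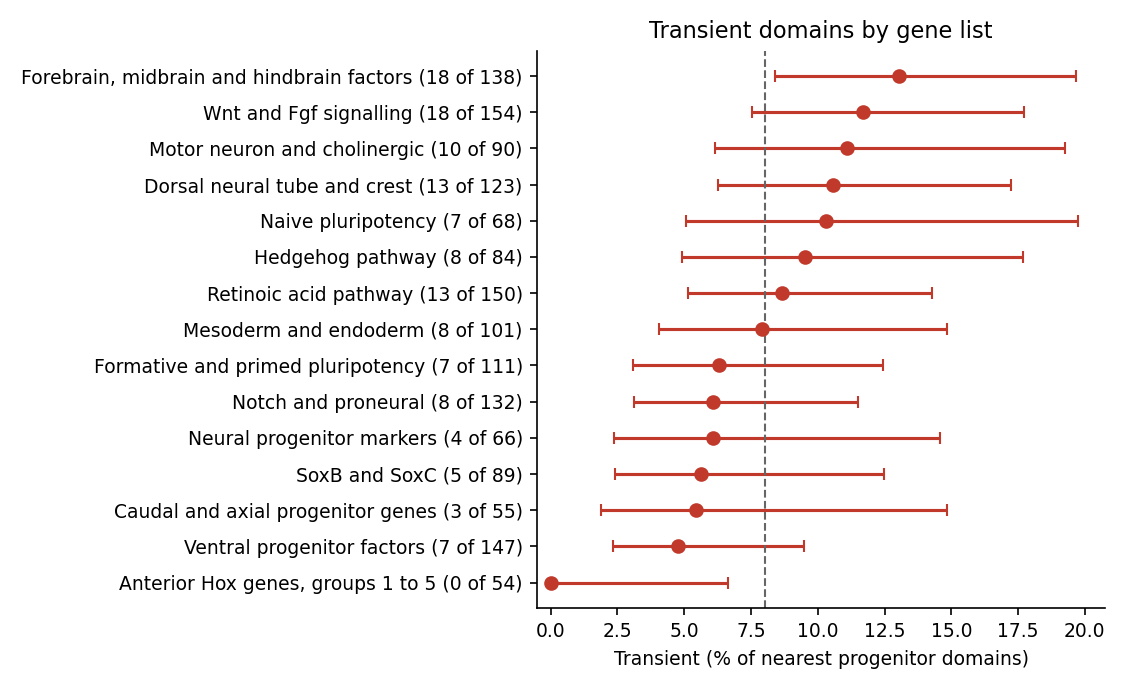
Percentage of progenitor domains at least 150 bp wide nearest to the genes of each list that were transient, with 95% Wilson intervals and, in brackets, the number of transient domains of all. The dashed line is the 8.04% of all progenitor domains; intervals are wide, and those of the brain factors (13.0%) and of the anterior Hox genes (0%) are the ones that leave it out.

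Single sites showed the same distal placement. After the Adgra3 site the widest were 979 bp across an exon of Dock1, a Rac activator (chr7:134752895-134753873), 917 bp in an intron of Nrg1, which encodes a growth factor for ErbB receptors (chr8:32383259-32384175), and 846 bp each in introns of the phosphatase gene Ptprt (chr2:162070679-162071524) and the kinase gene Nuak1 (chr10:84389305-84390150). The sixth, of 834 bp (chr4:110139992-110140825), lay 146 kb from the TSS of Elavl4, a neuronal RNA-binding protein. Distances to other lists differed between them: the Nrg1 site had an EB domain 0.412 kb away and the Nuak1 site a no Dox domain 0.764 kb away, whereas the Ptprt site had none within 11.9 kb in any list. In the central 150 bp, 1 of the 6, near Nuak1, held a Sox match, and over their whole width they held 2 to 5 each.

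The widest transient domains at promoters were at Spink1 (513 bp), a protease inhibitor gene, Gbp8 (385 bp), an interferon-inducible GTPase gene, Igf2bp2 (373 bp), an RNA-binding protein gene, the olfactory receptor gene Olfr53 (370 bp), and Hoxa13 (357 bp), the last Hox gene of its cluster. Olfr53 had no domain of another list within 26.4 kb, and Gbp8 had an EB domain 1.58 kb away but no day 4 domain within 179 kb. At Hoxa13, with a GC content of 66.4%, and at Igf2bp2 every other list had a domain less than 1 kb away.

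Transient domains seldom lay next to one another. The median gap to the next one was 214 kb, and 2725 had no other within 50 kb. To the next progenitor domain of the minimum width, transient or not, the median gap was 18.9 kb. For opened and kept domains that gap was 14.1 kb. How far the small number of transient domains set the gap between them was not tested. Runs with neighbours within 50 kb numbered 252 with 2 domains, 34 with 3, 1 with 4 and 1 with 5. The run of 5, between genes 82.1 to 204 kb from the TSS of Phlda1, a pleckstrin-homology domain gene, covered 122 kb (chr10:111588289-111710250) and held 7 progenitor domains of the minimum width in all. In the run of 4 (chr9:122481904-122552747), 130 to 195 kb from Abhd5 and Topaz1, all 4 progenitor domains were transient. Of the runs of 3, the one with the widest domain (670 bp) lay in introns of A930009A15Rik (chr10:115493712-115561370), and its 3 transient domains were the only progenitor domains there.

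Gaps to the other lists were measured for transient domains alone, with no background to set them against. The nearest domain of any of the 5 other lists was at a median of 3.97 kb, and 828 transient domains (24.8%, 23.4 to 26.3) had one within 1 kb, while 803 (24.0%) had none within 10 kb. By list, the median gap was 9.56 kb to EBs, 9.64 kb to no Dox and 8.85 kb to iHoxc6, and longer, at 14.5 and 15.8 kb, to iHoxc9 and iHoxc10, whose lists were the shortest, with 63504 and 56232 domains against 87916 to 94875 in the other 4. How far the length of the lists set these gaps was not tested.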

How the data were processed

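The processed files were lists of accessible domains, 1 for each of 6 groups, which the authors made from 2 samples a group. Per the labels and the study's methods, paired-end reads were mapped to mm10 with Bowtie2 2.2.2, Picard 2.8.2 was also used, and domains were called with DomainFinder on both replicates together; calling settings are not given in the methods. The deposited columns used hold the start and end of each domain in bp, a coordinate and not a signal. The no Dox list differs in format (3 more, constant columns, not used), and the day in its file name disagrees with its label. That name also gives a p threshold, absent from the other names, and different calling settings are possible. Starts were read as counted from 0, which no source states, and a position may be off by 1 bp.

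Overlap of 1 bp counted as shared. Genes and TSS came from GENCODE M21 (basic set, protein-coding) and sequence from GRCm38.p6. A promoter was TSS ± 1 kb, and domains took the first fitting class of promoter, exon, intron and between genes. Each of 33 motifs was searched on both strands in the central 150 bp and in both windows 5 kb away. Transient and opened and kept domains were compared within GC classes of 5 points. Flanking windows were not matched for GC content. Motifs that contain one another are counted under each. Genes named were chosen from, in each of 15 lists, the up to 4 with the most transient domains (1 such gene is not reported here), and the 10 with the most overall; sites were the 6 widest, the 5 widest at promoters, the widest of 5 lists and the 3 largest runs; motifs were the 6 highest and 4 lowest ratios of transient to opened and kept domains and all retinoid, Sox, Gli and Hox motifs. Members, lists and rules were chosen with earlier results of these data known. All comparisons are descriptions: no test was run, since each group had 1 list. Overlaps, gaps and motif matching were first run on simulated data (27 checks, of which 0 differed). Python 3.11.15, NumPy 2.4.6, SciPy 1.17.1, pysam 0.24.0 and Matplotlib 3.10.9 were used. Alternatives are given in the closing section.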

Additional observations from a re-analysis of the deposited data

How the results depend on the processing

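No paired analysis was possible because every list pools the replicates, and for the same reason no replicate could be left out. The number of transient domains stayed between 2263 and 4841 under 9 alternatives. It was 835 with a minimum width of 300 bp and 7795 when only an overlap of at least 50% of the domain counted as shared. With no minimum width, 26221 progenitor domains overlapped no other list. The promoter share was 1.44% at 300 bp or wider, 2.36% with other lists padded by 200 bp, 3.81% without the no Dox list and 3.80% with lists cut to equal length. It was 1.65% within 500 bp of a TSS (31.4% of all progenitor domains), 9.64% within 5 kb (41.1%) and 5.96% with all gene types (37.6%). The Sox share was 62.2% over the whole domain, where opened and kept domains, which are wider, reached 71.3%, and 44.6% at 300 bp or wider, where they had 44.7%. Alternatives added after seeing the data gave 51.8% for members in the first 50% of the list and 49.96% for members 1 kb or more from other lists. They gave a Sox ratio of transient to opened and kept domains of 1.15 at widths under 300 bp and 1.17 in the first 50% of the list. With GC weighting, and for domains under 300 bp wide, in the first 50% of the list or outside promoters, the RFX ratio was 0.347 to 0.412 and the CAGCTG ratio 0.469 to 0.611; over whole domains, CAGCTG was in 14.8% of transient and 35.2% of opened and kept domains, and RFX in 3.59% and 11.1%. By gene body in place of the nearest TSS, Pcdh9, Tox3, Epha4 and Gata3 kept 1 transient domain each, Robo2 2 and Adgrl2 0. With neither heights nor replicates, domains near the calling threshold could not be told from stable ones.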

Other observations

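Beyond the motifs searched by name, hexamers were ranked by their share in transient domains against that in opened and kept domains weighted to the same GC content. The highest was ACACCT, in 4.67% of transient and 2.52% of GC-weighted opened and kept domains, followed by AGTAGG, in 5.39% and 3.05%. Neither exceeded its share in windows 5 kb from transient domains, which was 8.20% and 5.42%. The lowest ratio was that of AGCCGG, in 1.35% of transient and 2.71% of GC-weighted opened and kept domains.

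Of transient domains, 40.4% (38.7 to 42.0) held no Sox motif, no RFX motif and no E-box with CAGCTG or with CAGATG in their central 150 bp, against 36.0% (34.6 to 37.4) of opened and kept domains and 58.4% (57.9 to 58.9) of all progenitor domains but the transient. Octamers (ATGCAAAT), bound by POU factors such as the pluripotency factor Pou5f1, were in 0.958% of transient domains and 1.14% of flanks, but in 3.45% of domains held in EBs and closed.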
